A study of Homo sapiens with 12 samples.

Results

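The genes of the oxidative phosphorylation system were followed over 12 arrays of synchronized HCT116 cells, a human colorectal carcinoma line. They were taken by symbol as all genes whose names start with NDUFA, NDUFB, NDUFC, NDUFS, NDUFV, UQCR or ATP5, the SDH genes, and the COX genes numbered 4 to 8. Of 19775 genes with a probe set annotated to a single symbol, 90 met this rule, and 79 of them had a log2 signal of at least 5 on at least 2 arrays, as did 9130 genes in all. The 79 genes comprised 33 of complex I, 3 of complex II, 6 of complex III, 12 of complex IV and 17 of complex V, and 8 assembly factors of complex I (NDUFAF1 to NDUFAF8), which share the NDUFA prefix but are not subunits of the finished complex. Beyond the symbols only the level filter chose the genes, though earlier results of these data were known. Each gene was represented by its probe set with the highest mean.

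The cells were arrested with 2 mM thymidine for 19 h, released for 9 h and arrested again for 16 h, which holds them at the start of S phase. They were then released into DMSO, the vehicle, and collected every 2 h up to 6 h and every hour from 7 to 10 h, or into 0.1 mg/ml nocodazole, which depolymerizes microtubules and holds cells in mitosis, and collected after 7, 8, 9 and 10 h. All 12 groups shared the cell line, with no genetic change named, and the thymidine blocks, and each was measured on 1 Affymetrix U133 Plus 2.0 array. With no replicates, each limma p-value rests on how arrays of neighbouring hours scatter about the fit, and it measures nothing else. The RNA came from whole cultures, in which a change in the share of cells in a given state and a change in RNA per cell cannot be told apart.

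Oxidative phosphorylation takes place at the inner mitochondrial membrane. Complexes I and II pass electrons from NADH and succinate to ubiquinone, complex III passes them on to cytochrome c and complex IV to oxygen, and the proton gradient that complexes I, III and IV build is used by complex V, the ATP synthase, to make ATP. Most subunits are encoded in the nucleus and imported, and a few are encoded in mitochondrial DNA, so that the complexes are built from products of both genomes. In the promoters of the nuclear genes, the factors NRF1, GABP (of the ETS family) and YY1 are known regulators.

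Promoter windows of 300 bases (250 before to 50 after the start of transcription, RefSeq, GRCh38.p14) were found for 69 of the 79 genes, with 87 windows in all because some genes have several starts. On either strand, the NRF1-type core GCATGCGC was present in 16 of these 87 windows (18.4%), in 5.1% of 10988 windows of the genes tested and in 3.05% of all 35116 windows. The YY1-type motif AAGATGGC was present in 14 windows (16.1%, against 5.4% and 2.89%), and the ETS-type motif CCGGAAG in 23 (26.4%, against 18.5% and 10.3%). The letters TTTGAA, the core of the CHR element of late cell cycle genes, were present in 4 windows (4.6%, against 10.4% and 15.2%), and CCAAT in 30 (34.5%, against 35.2% and 34.6%). A match is a description of the letters and not a bound site. Below are the first 280 bases of the window for 5 of the genes called in the comparisons described further on. Other called genes, among them NDUFB1, are not shown. SDHD (chr11:112086623-112086902, plus strand) and NDUFAF4 (chr6:96897862-96898141, minus strand) changed in opposite directions with DMSO. NDUFA8 (chr9:122159750-122160029, minus strand), NDUFA9 (chr12:4648864-4649143, plus strand) and ATP5MC2 (chr12:53676054-53676333, minus strand, the first of 3 listed starts) fell in nocodazole. Capitals mark matches to the NRF1-type, ETS-type, YY1-type and CHR-type letters on either strand. In NDUFA8 and SDHD the run GCGCATGCGC holds the NRF1-type core on both strands, as a pair of overlapping matches, and no other matches in these 5 sequences overlap.
SDHD: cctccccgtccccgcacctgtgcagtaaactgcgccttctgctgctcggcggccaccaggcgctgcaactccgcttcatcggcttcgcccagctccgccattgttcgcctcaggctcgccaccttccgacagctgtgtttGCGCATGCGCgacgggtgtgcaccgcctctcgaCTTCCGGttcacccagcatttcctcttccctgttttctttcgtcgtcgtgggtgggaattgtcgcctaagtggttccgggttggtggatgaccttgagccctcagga
NDUFAF4: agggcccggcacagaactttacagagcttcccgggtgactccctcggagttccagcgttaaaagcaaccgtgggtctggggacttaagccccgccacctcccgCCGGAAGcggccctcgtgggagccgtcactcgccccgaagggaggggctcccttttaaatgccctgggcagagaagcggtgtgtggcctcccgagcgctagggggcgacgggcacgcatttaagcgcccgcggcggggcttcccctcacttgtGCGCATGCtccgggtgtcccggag
NDUFA8: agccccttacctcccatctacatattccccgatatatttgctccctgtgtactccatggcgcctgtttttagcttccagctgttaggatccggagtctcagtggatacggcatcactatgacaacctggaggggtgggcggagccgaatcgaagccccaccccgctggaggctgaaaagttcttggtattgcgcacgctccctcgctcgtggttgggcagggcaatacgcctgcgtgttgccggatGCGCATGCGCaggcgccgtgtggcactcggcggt
NDUFA9: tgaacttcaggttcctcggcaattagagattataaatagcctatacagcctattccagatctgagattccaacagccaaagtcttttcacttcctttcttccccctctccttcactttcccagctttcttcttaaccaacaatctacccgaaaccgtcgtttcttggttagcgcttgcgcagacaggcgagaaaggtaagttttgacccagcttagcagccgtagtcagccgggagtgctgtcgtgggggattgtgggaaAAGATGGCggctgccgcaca
ATP5MC2: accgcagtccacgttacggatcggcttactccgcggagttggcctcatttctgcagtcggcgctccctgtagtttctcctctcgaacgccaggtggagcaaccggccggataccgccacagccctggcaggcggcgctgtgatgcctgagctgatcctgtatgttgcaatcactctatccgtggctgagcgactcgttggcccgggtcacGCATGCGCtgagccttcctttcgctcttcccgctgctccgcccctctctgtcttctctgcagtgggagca
NDUFA8, ATP5MC2, SDHD and NDUFAF4 thus held the NRF1-type core, SDHD and NDUFAF4 also the ETS-type letters, and NDUFA9 the YY1-type letters only. These 5 do not stand for the rest, as 15 of all 69 genes with a window held the NRF1-type core. Of the genes called over the DMSO course 6 had a window, and SDHD and NDUFAF4 were the 2 with that core. Among the genes called lower in nocodazole at 9 and 10 h, described further on, 5 of 26 with a window held the NRF1-type core, against 10 of the other 43, and 4 of 26 against 17 of 43 held the ETS-type letters.

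The arrays differed in ways that touch the results. The median log2 signal over all genes tested was 9.12 to 9.56 on the DMSO arrays, where the 10 h array was highest, and 9.32, 9.41, 8.88 and 8.76 on the nocodazole arrays at 7, 8, 9 and 10 h. Every comparison is therefore given as deposited and after quantile normalization, which gives all arrays the same distribution of probe set signals. The 18S rRNA control probe sets averaged 8.32 on the DMSO array of 4 h, whereas the other 11 arrays gave 3.55 to 4.05. The ACTB control signal of the 3 prime probe set exceeded that of the 5 prime set by 1.01 to 1.15 on the log2 scale on the DMSO arrays of 0 to 6 h, by 0.757 to 0.944 on those of 7 to 10 h and by 0.675 to 0.946 with nocodazole. The same difference for GAPDH was 0.03 to 0.08 on the early DMSO arrays and -0.09 to 0.005 on the late ones. The epithelial markers EPCAM, CDH1, KRT8, KRT18 and KRT19 were above the filter, CDX1, CDX2 and VIL1 were below it, and of the leukocyte, fibroblast and endothelial markers measured, only COL1A1 passed (7.75 to 8.60).

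Most of the 79 genes gave bright signals that moved little with time. The median over the genes of the mean log2 signal was 12.62, against 9.21 for all genes tested, and the range ran from 7.39 (NDUFAF7) to 14.79 (ATP5F1A, the alpha subunit of ATP synthase). A signal depends on the probe set as well as on the RNA, so levels of different genes are not ranked here. The difference between the highest and lowest DMSO array had a median of 0.47, against 0.77 for all genes. Among genes with a mean signal of at least 12 it was 0.45 for all 1028 and 0.44 for the 46 of this system. The narrowest ranges were those of NDUFB8 (0.18), ATP5F1B, the catalytic beta subunit (0.21), and NDUFB9 (0.21), and the widest those of the assembly factors NDUFAF3 (1.43), NDUFAF7 (1.36) and NDUFAF5 (1.01).

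Several subunits exist as isoforms of restricted tissues, and most of these were near the floor of the array. COX6A2 and COX7A1, the isoforms of heart and skeletal muscle, had signals of 2.07 to 2.22 and 2.03 to 2.18 over the 12 arrays. COX6B2, COX7B2 and COX8C, known from testis, had 2.08 to 2.20, 2.42 to 2.58 and 2.70 to 3.13. Their widely expressed partners were bright on the same arrays, with means of 14.47 (COX6A1), 13.52 (COX7A2), 12.68 (COX6B1), 13.77 (COX7B) and 13.80 (COX8A). COX4I2, an isoform known from lung and from hypoxic cells, passed the filter at a mean of 7.62, while COX4I1 had 14.32. The probe set for ATP5MF, the pseudogenes ATP5MC2P1 and COX6A1P1, and the transcripts NDUFB2-AS1, NDUFV1-DT and NDUFV2-AS1 were also below the filter, which makes 11 genes in all.

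**Figure D1:**
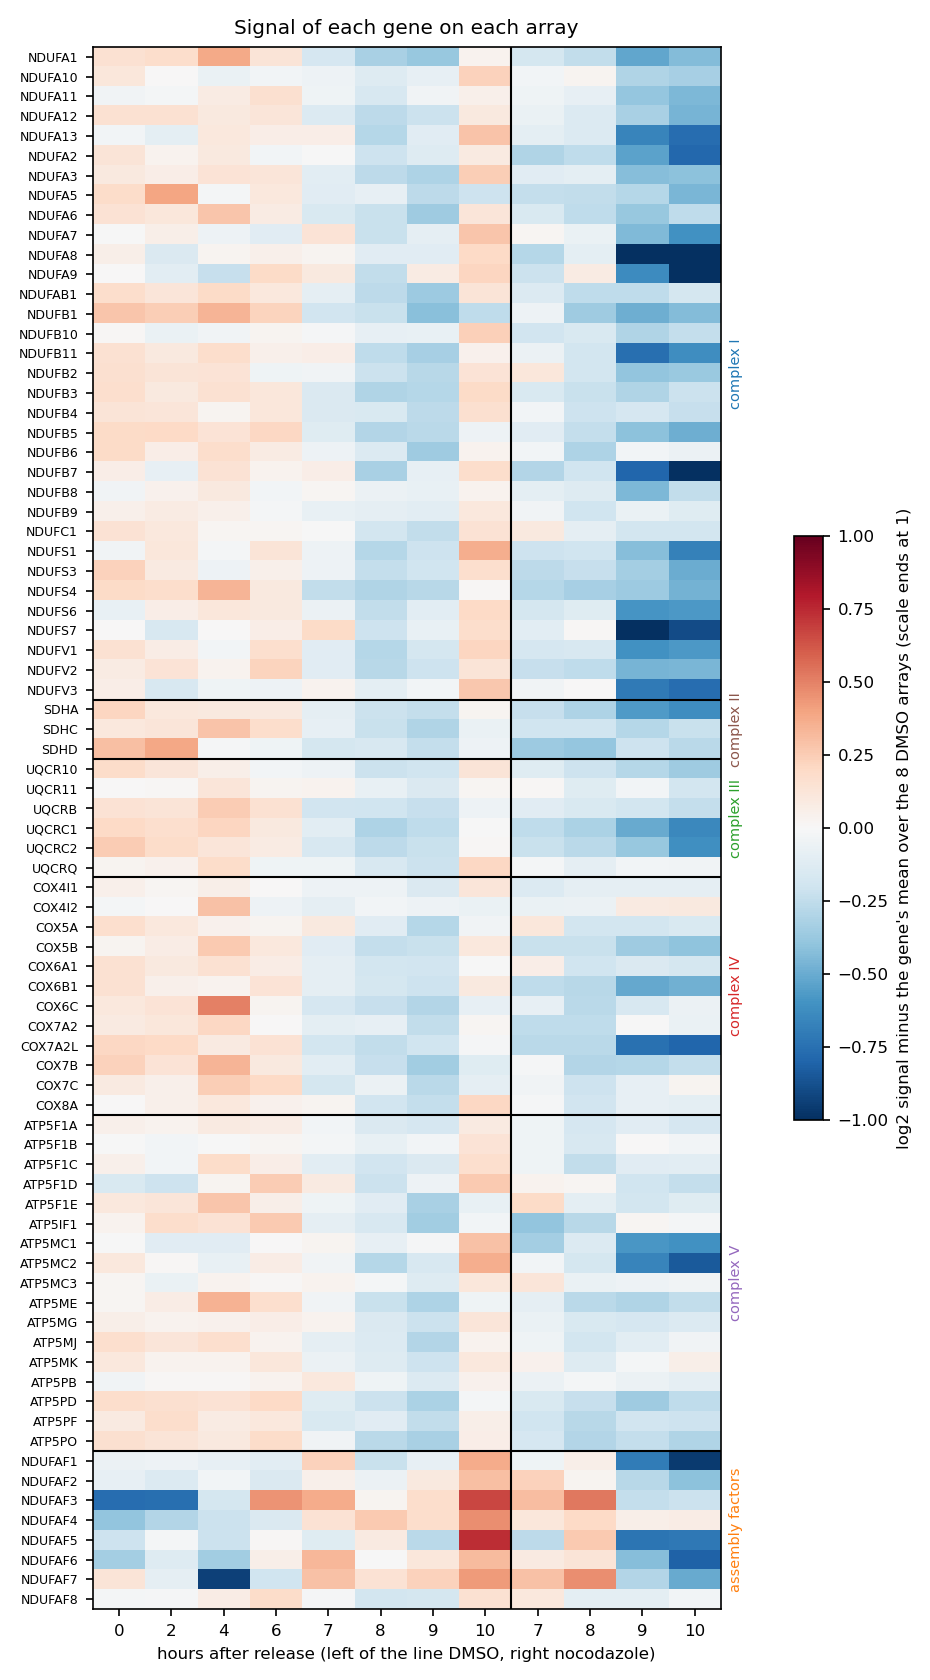
Signal of the 79 genes (rows, by complex) on the 12 arrays (columns, hours after release), as the log2 difference from the gene's mean over the 8 DMSO arrays in deposited values, with the colour scale ending at 1 in each direction. DMSO arrays at 8 and 9 h are mostly blue, the 10 h array is mostly red, and the nocodazole arrays at 9 and 10 h are bluest in complex I and the assembly factors.

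With DMSO, most of the 79 genes were lowest at 8 or 9 h as deposited, and after quantile normalization most were highest between 0 and 6 h. The median deviation of the 79 genes from their own DMSO mean was 0.09, 0.07, 0.09 and 0.07 at 0, 2, 4 and 6 h, then -0.05, -0.19 and -0.21 at 7, 8 and 9 h, and 0.11 at 10 h. At 8, 9 and 10 h it was -0.063, -0.059 and 0.175 for all genes tested, -0.150, -0.138 and 0.178 for proteasome genes, and -0.093, -0.113 and 0.076 for cytosolic ribosomal proteins. The low signals at 8 and 9 h and the rise at 10 h were thus not particular to the 79 genes. In deposited values the lowest DMSO signal was at 8 h for 29 genes and at 9 h for 41, and the highest was at 10 h for 31 and between 0 and 6 h for 45. From 9 to 10 h the signal was higher for 78 of 79 genes, by a median of 0.30, and for all genes tested by a median of 0.25. After quantile normalization the 10 h array no longer stood out, with deviations of 0.14, 0.07, 0.09, 0.03, -0.07, -0.10, -0.11 and -0.05 over the 8 times. At 8 and 9 h the normalized values were -0.035 and -0.064 for all genes tested, -0.063 and -0.011 for proteasome genes, and -0.009 and -0.017 for cytosolic ribosomal proteins. On that scale 68 of 79 genes had their highest signal between 0 and 6 h, and the lowest was at 7 h for 10, at 8 h for 24, at 9 h for 18 and at 10 h for 15.

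Between 0 to 4 h and 6 to 8 h no gene of the 79 passed in deposited values. Of all genes, 5.41% were called higher and 0.635% lower (limma, Benjamini-Hochberg adjusted p under 0.05). At an unadjusted p under 0.05 there were 13 of 79 genes (16.5%), and 24.9% of all genes. The median difference was -0.14 on the log2 scale, against 0.06 for all genes, and 63 of 79 genes were below 0. In 24 of 79 genes (30.4%) all 3 arrays of 6 to 8 h lay below all 3 of 0 to 4 h, which held for 9.98% of all genes. After quantile normalization 5 genes were lower and none higher, where 5.08% of all genes were higher and 4.6% lower. They were NDUFS4 (-0.52, adjusted p = 0.0367) and NDUFA1 (-0.35), NDUFB2 (-0.27), UQCRC2 (-0.28) and UQCRC1 (-0.29), the last both core proteins of complex III, with adjusted p from 0.0445 to 0.0490. The median was then -0.14, against -0.10 for all genes, so that the genes lay 0.20 below the median of all genes as deposited and 0.04 below it after normalization. Lower without overlap there were 38 of 79 genes (48.1%), where the share of all genes was 26.6%.

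The count depended on single settings. It was 10 (2 higher, 8 lower) in 1 fit over all 12 arrays, where 13.0% of all genes were higher and 3.71% lower, and 31, all lower, where each array's median was subtracted and 10.1% of all genes were lower. Without the 6 h array it was 6, with 13.9% of all genes called. Without the 4 h array, on which 18S rRNA was high, it was 2, with 6.0%. It was 0 without each of the other 6 arrays. The share of all genes was then 0% without the 2, 7 or 8 h array. It was 1.47%, 2.32% and 2.48% without the 0, 9 and 10 h array. The part of the 18S signal in the values at 4 h was not tested.

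From 6 to 8 h to 9 and 10 h none of the 79 genes passed in either scaling. The share of all genes was 0% in both. At an unadjusted p under 0.05 limma gave 0 of 79 genes as deposited, with 5.15% of all genes, and 3 after normalization, with 8.05%. The largest differences were -0.27 for NDUFB1 and -0.21 for NDUFA5, and 0.25 for both NDUFAF2 and NDUFAF7.

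A smooth curve of time over the 8 DMSO arrays called 8 of the 79 genes, 6 subunits that fell and 2 assembly factors that rose. The share of all genes called was 21.8%, above the 10.1% of these genes. The same 8 were among the 32 genes called after quantile normalization (40.5%), where the share of all genes was 40.1%. By complex, 14 of 33 genes of complex I, all 3 of complex II, 4 of 6 of complex III, 4 of 12 of complex IV, 5 of 17 of complex V and 2 of 8 assembly factors were called on that scale.

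NDUFB1, a small accessory subunit of the membrane arm of complex I, had the smallest adjusted p. Its log2 signals were 13.41, 13.38, 13.47 and 13.35 at 0, 2, 4 and 6 h and 12.94, 12.91, 12.71 and 12.88 at 7, 8, 9 and 10 h, with no overlap between the early and the late arrays (limma, adjusted p = 0.0149). NDUFA1, another subunit of the membrane arm, had 13.30, 13.32, 13.53 and 13.27 and then 12.98, 12.82, 12.76 and 13.18 (adjusted p = 0.0356). Both genes thus stepped down between 6 and 7 h, and NDUFA1 came back at 10 h in deposited values.

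SDHD, a membrane anchor of succinate dehydrogenase, stepped down earlier. Its signals were 12.99 and 13.08 at 0 and 2 h, then 12.68, 12.65, 12.51, 12.53, 12.45 and 12.64 from 4 to 10 h, all 6 below the first pair (adjusted p = 0.0405). The other measured complex II genes were not called as deposited. SDHA, the flavoprotein, had 10.72, 10.62, 10.61 and 10.61 from 0 to 6 h and 10.42, 10.30, 10.28 and 10.54 from 7 to 10 h (adjusted p = 0.307), and SDHC, the other anchor, had 12.08, 12.10, 12.27 and 12.16, then 11.90, 11.76, 11.68 and 11.91 (adjusted p = 0.0956). In both, every signal from 7 h on lay below every earlier one, and after normalization both passed, with adjusted p of 0.0082 and 0.0042. The SDHC values are those of its brightest probe set, which gave -0.21 between 0 to 4 h and 6 to 8 h where its other 3 above the filter gave 0.03 to 0.08. Of 25 genes with several such probe sets, 18 had the same sign on all of them for this difference, and ATP5IF1, ATP5MC3, COX7C, NDUFA11, NDUFA6, SDHC and UQCR11 did not.

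In complexes III and IV the called genes were UQCRB, a small subunit near the ubiquinone site, and COX6C and COX7B, small nuclear subunits of cytochrome c oxidase. UQCRB had 14.81, 14.79, 14.92 and 14.82 from 0 to 6 h and 14.47, 14.46, 14.43 and 14.61 from 7 to 10 h (adjusted p = 0.0436). COX7B had 14.08, 13.98, 14.18 and 13.94, then 13.73, 13.61, 13.50 and 13.72 (adjusted p = 0.0273). COX6C had 14.45, 14.48, 14.85 and 14.37, then 14.18, 14.11, 14.05 and 14.26 (adjusted p = 0.0188). The early and late arrays of these 3 genes did not overlap either, and the single high COX6C value was that of the 4 h array, where 18S rRNA was high. Without that array COX6C had a range of 0.43 in place of 0.80.

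NDUFAF3 and NDUFAF4, which act together early in the assembly of complex I, rose. NDUFAF3 had 9.19, 9.19 and 9.76 at 0, 2 and 4 h and 10.40, 10.32, 9.97, 10.12 and 10.62 from 6 to 10 h (adjusted p = 0.0323). NDUFAF4 had 10.45, 10.55, 10.63 and 10.70 from 0 to 6 h and 10.99, 11.11, 11.02 and 11.31 from 7 to 10 h (adjusted p = 0.0203). For NDUFAF3 every array from 6 h on lay above those of 0 to 4 h, and for NDUFAF4 every array from 7 h on lay above the earlier ones. The split into early and late arrays differed between the 8 called genes and followed their values. The share of all genes without overlap at such splits was not counted. The median deviation of the 8 assembly factors was -0.15, -0.11, -0.20 and -0.05 from 0 to 6 h and 0.19, 0.01, 0.10 and 0.40 from 7 to 10 h. After normalization their medians stayed within -0.02 and 0.09, so the higher late values of the group depended on the scaling. The step between 6 and 7 h in NDUFB1, NDUFA1, UQCRB, COX7B, COX6C and NDUFAF4 coincided with the lower ACTB and GAPDH differences between 3 prime and 5 prime probe sets from 7 h on, whose part in it was not tested. SDHD and NDUFAF3 had already changed before 7 h.

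**Figure D2:**
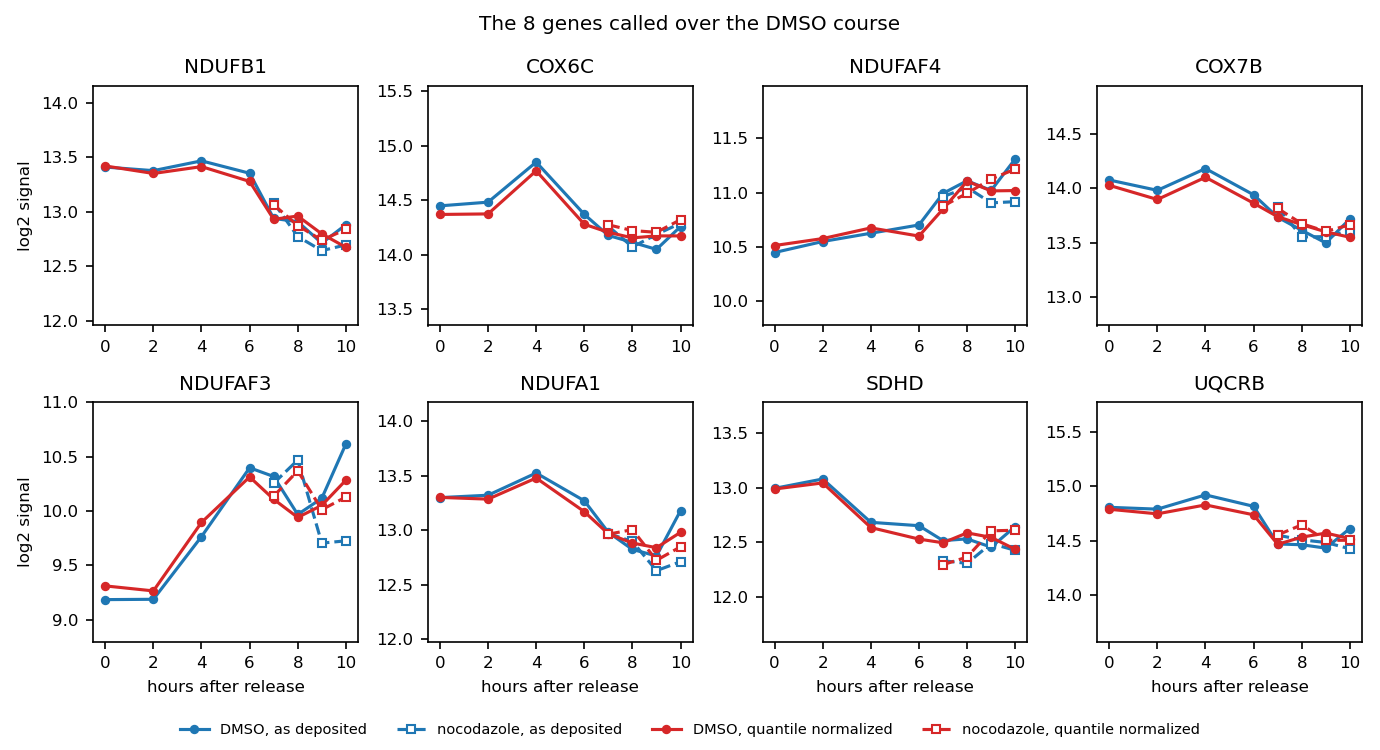
Log2 signal of the 8 genes called over the DMSO course (1 panel each) against hours after release, for DMSO (filled circles) and nocodazole (open squares), in deposited (blue) and quantile normalized (red) values. Each vertical axis spans at least 2.2 units, and 6 genes step down between 2 and 7 h while NDUFAF3 and NDUFAF4 rise.

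The number called was 1 without the 8 h or the 9 h array, where 14.5% and 13.6% of all genes were called, 4 without the 7 h array (24.3%) and 24 without the 10 h array (18.1%). It was 1 without an intensity trend (1642 of 9130 genes in all), 3 without the level filter (7.58%), 4 with a spline of 2 degrees of freedom (20.2%), 13 with a filter at 7 (29.8%) and 58 where array medians were subtracted (44.7%).

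At 7 and 8 h, nocodazole and DMSO arrays of the same hour differed little. None of the 79 genes passed in deposited values, where 0.011% of all genes were higher and 0.011% lower, and none passed after quantile normalization, where the shares were 0.0876% and 0.0986%. At an unadjusted p under 0.05 limma gave 0 genes of the 79 as deposited, with 1.96% of all genes, and 8 (10.1%) after normalization, with 6.99%. The median difference was -0.02 for these genes and -0.01 for all genes. The largest values were -0.21 for both ATP5MC1 and ATP5IF1, and 0.22 for NDUFAF3 and 0.16 for NDUFAF7. Without the 8 h array of either treatment these last became -0.06 and -0.002.

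At 9 and 10 h, 27 of the 79 genes (34.2%) were lower in nocodazole than in DMSO and none was higher. Of all genes, 40.8% were lower and 4.42% higher, so the share was near that of the whole array. The median difference was -0.29, against -0.44 for all genes. In 43 genes both nocodazole arrays were below both DMSO arrays of these hours (54.4%), which held for 67.8% of all genes. In 39 (49.4%) both were also below all 8 DMSO arrays, which held for 39.8% of all genes. After quantile normalization 13 were lower (16.5%) and 7 higher (8.86%), where 17.7% of all genes were lower and 17.4% higher, and 31 were lower without overlap (39.2%), where the share was 34.7%. The direction of the group against all genes turned with the scaling. Its median lay 0.15 above that of all genes as deposited and 0.04 below it after normalization, and with array medians subtracted 41 genes were called higher and 2 lower, where 34.4% of all genes were higher and 12.1% lower.

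In deposited values the size of the difference went with the signal of the probe set, in these genes as in all genes. Of 9 genes with a mean signal under 10, 8 were lower, with a median of -0.95, against 42.3% and -0.53 for all genes of that band. Of 24 genes between 10 and 12, 13 were lower (54.2%), with a median of -0.54, against 49.2% and -0.47. Of 46 genes at 12 or more, 6 were lower (13.0%), with a median of -0.10, against 13.4% and -0.13. After normalization the 3 medians were -0.32, -0.06 and -0.03 for these genes and 0.025, -0.024 and -0.007 for all genes. The bands and the count of genes below all 8 DMSO arrays were added after the values were seen.

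**Figure D3:**
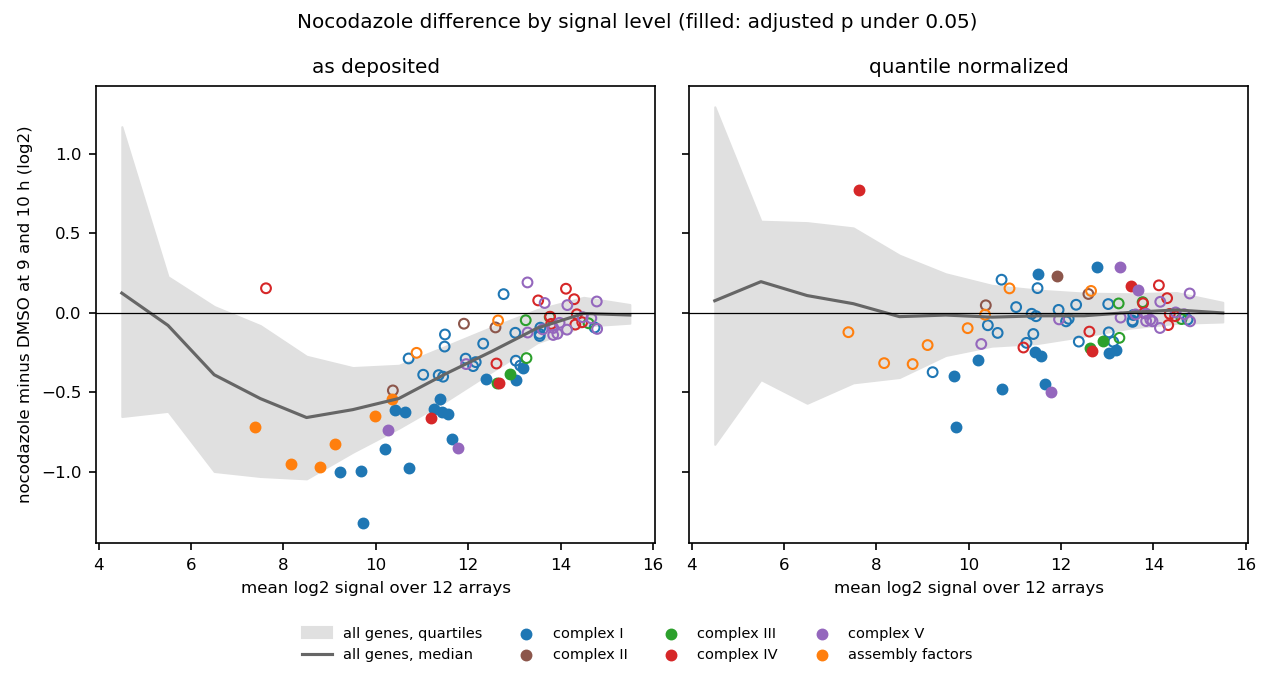
Nocodazole minus DMSO at 9 and 10 h (log2) against the mean log2 signal over 12 arrays for the 79 genes, coloured by complex and filled where the adjusted p was under 0.05, over the median and quartiles of all genes in bins of 1 unit (grey). In deposited values the genes follow the sloping median of all genes, with NDUFA8 lowest at -1.32, and after quantile normalization they spread around 0.

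NDUFA8, an accessory subunit of complex I on the side of the intermembrane space, fell the most. Its log2 signals with DMSO were 10.02, 9.81, 9.99, 10.01, 9.99, 9.85, 9.85 and 10.15 from 0 to 10 h. With nocodazole they were 9.67 and 9.86 at 7 and 8 h and 8.79 and 8.58 at 9 and 10 h. The last pair lay over 1 unit below every DMSO array, and the difference at 9 and 10 h was -1.32 (SE 0.22, limma adjusted p = 0.000866), a signal of 40.0% of that with DMSO.

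NDUFA9, an accessory subunit at the joint of the matrix and membrane arms, had 10.88, 10.76, 10.64, 11.06, 10.97, 10.62, 10.95 and 11.08 with DMSO. With nocodazole it had 10.66, 10.95, 10.24 and 9.83, again lower at 9 and 10 h than on any DMSO array (-0.98, SE 0.21, adjusted p = 0.00354). NDUFA8 and NDUFA9 were called lower as deposited, after quantile normalization (-0.72 and -0.48) and with array medians subtracted (-0.66 and -0.31, adjusted p = 0.000108 and 0.0488), and no other gene of the 79 was called lower in all 3 scalings. They were also called in every other alternative run for this comparison, with -1.06 and -0.71 as the smallest differences when 1 array was left out.

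With NDUFA8 and NDUFA9, 15 of the 33 genes of complex I were lower as deposited, 4 of 5 core subunits and 11 of 28 accessory ones. After normalization 1 core subunit and 8 accessory ones were lower and 2 accessory ones higher, and the core median went from -0.61 to -0.18. NDUFS7, the core subunit that carries the last iron-sulfur cluster before ubiquinone, had 9.77 and 10.02 with DMSO and 8.85 and 8.95 with nocodazole (-0.998, SE 0.22, adjusted p = 0.00361). NDUFB7, an accessory subunit of the membrane arm, had 9.34 and 9.59 against 8.62 and 8.30 (-1.003, SE 0.24, adjusted p = 0.00621). Neither pair overlapped, and after quantile normalization NDUFS7 stayed called (-0.40, adjusted p = 0.0397) while NDUFB7 did not (-0.37, adjusted p = 0.065). The median over complex I was -0.39 as deposited, close to the -0.44 of all genes, and -0.08 after normalization.

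The 3 genes of subunit c, the proton-carrying ring of ATP synthase, encode the same mature protein and differed. ATP5MC1 had 10.40 and 10.71 with DMSO at 9 and 10 h and 9.83 and 9.80 with nocodazole, and fell by 0.74 (SE 0.20, adjusted p = 0.0106). ATP5MC2 had 11.76 and 12.28 against 11.26 and 11.08, and fell by 0.85 (SE 0.18, adjusted p = 0.00346). ATP5MC3 had 14.54 and 14.78 against 14.62 and 14.64, a difference of -0.04 (SE 0.11, adjusted p = 0.813). The groups overlapped for ATP5MC3 alone, and its probe set was also the brightest of the 3, in the range where differences of all genes were small. After quantile normalization only ATP5MC2 was called (-0.50, adjusted p = 0.00394), and with medians subtracted its value was -0.19 (adjusted p = 0.275). Differences between the 3 genes were not tested.

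ATP5MC1 and ATP5MC2 were the sole genes of complex V called, out of 17, and none of its 5 F1 subunits was. In complex IV, COX6B1 (-0.44) and COX7A2L, a factor of respiratory supercomplexes that belongs to the COX7A family, were lower out of 12. COX7A2L had 11.16 and 11.34 with DMSO at 9 and 10 h and 10.61 and 10.56 with nocodazole (-0.66, SE 0.17, adjusted p = 0.00886), but was not called after normalization (-0.22, adjusted p = 0.0626) or with array medians subtracted (0.0, adjusted p = 0.999). In complex III the core proteins UQCRC1 (-0.44) and UQCRC2 (-0.39) were lower out of 6, and of the 3 genes of complex II none was, with -0.49 for SDHA (adjusted p = 0.0532), -0.07 for SDHC and -0.09 for SDHD. The medians were -0.18 for complex III, -0.04 for complex IV and -0.10 for complex V, and signals in complexes III, IV and V were mostly in the bright band.

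Of the 8 assembly factors 6 were lower as deposited and 0 after normalization, where limma gave 1 at an unadjusted p under 0.05, with 47.1% of all genes. NDUFAF1 fell by 0.97 (SE 0.26, adjusted p = 0.0099) and NDUFAF5 by 0.95 (SE 0.28, adjusted p = 0.0156), from signals of 8.84 and 9.30, and 8.02 and 9.02, with DMSO at 9 and 10 h. These are among the dimmest probe sets of the 79, and after normalization the values were -0.32 for each, with adjusted p of 0.143 and 0.244.

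After quantile normalization 7 genes were higher in nocodazole at 9 and 10 h. ATP5IF1, the inhibitor that keeps ATP synthase from running backwards, had normalized signals of 13.08 and 13.14 with DMSO and 13.38 and 13.40 with nocodazole (0.29, adjusted p = 0.0137). NDUFB6, of the membrane arm of complex I, differed by 0.29 (adjusted p = 0.0117), and NDUFA5 (0.24), SDHC (0.23), COX7A2 (0.17) and ATP5MJ (0.14) by less. COX4I2, the dimmest complex IV gene, differed by 0.77 (adjusted p = 0.0247) with normalized signals of 7.46 and 7.22 against 8.05 and 8.17. In deposited values none of the 7 was called. ATP5IF1 also depended on the probe set. The brightest one gave 0.19 as deposited and the dimmest, with a mean of 6.25, gave -4.49, so its direction is uncertain. After normalization the other SDHC probe sets gave -0.004, -0.377 and -0.001, and the other one of ATP5MJ gave -0.24. Of the 25 genes with several probe sets, 19 had the same sign on all of them at 9 and 10 h, and ATP5IF1, ATP5ME, ATP5MJ, COX7C, NDUFAF7 and NDUFV3 did not.

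**Figure D4:**
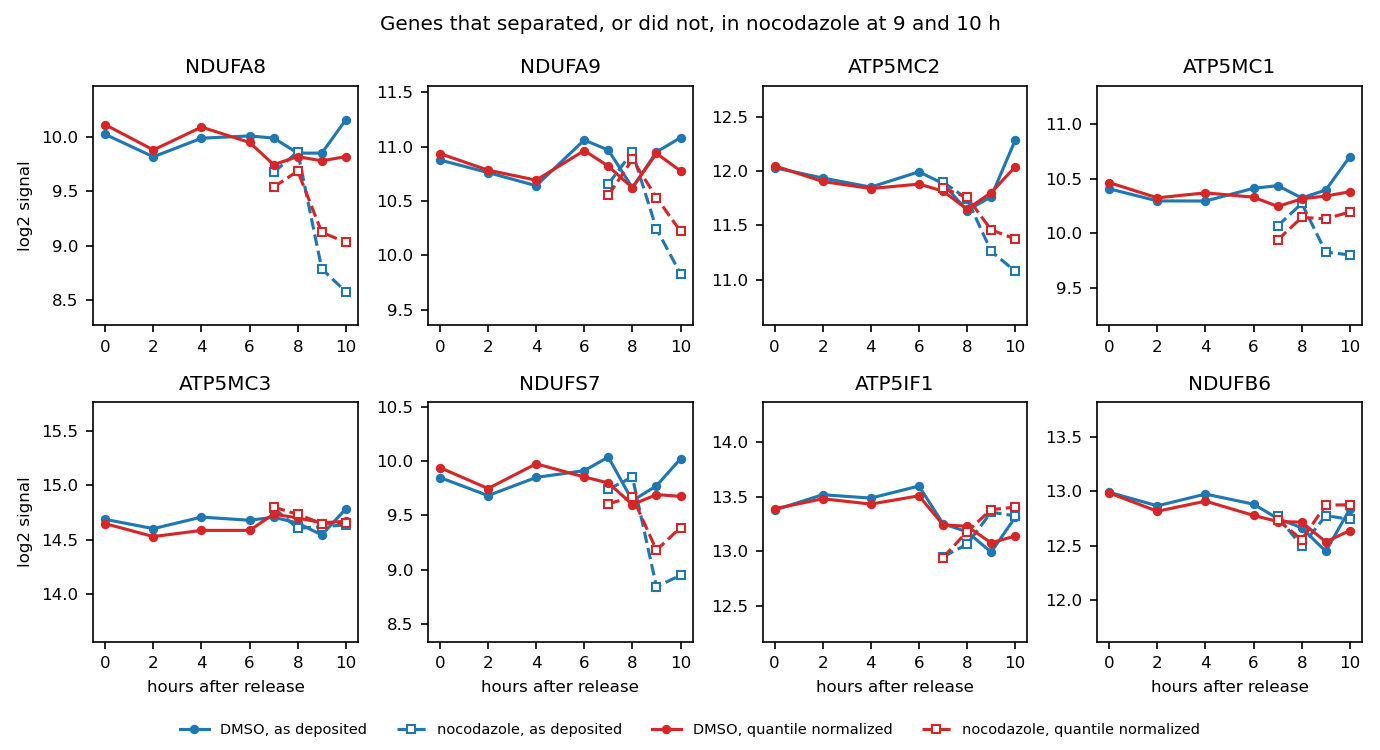
Log2 signal of 8 genes against hours after release, for DMSO (filled circles) and nocodazole (open squares), in deposited (blue) and quantile normalized (red) values. NDUFA8, NDUFA9, NDUFS7 and ATP5MC2 separate at 9 and 10 h in both scalings, ATP5MC1 mostly in deposited values, ATP5MC3 does not, and ATP5IF1 and NDUFB6 lie higher with nocodazole after normalization.

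The 10 h arrays carried most of the difference. At 9 h the nocodazole array differed from the DMSO array by a median of -0.09 over the 79 genes (-0.25 over all genes) and at 10 h by -0.41 (-0.61), the DMSO array of 10 h being the brightest of its series. Without either 10 h array 10 genes were lower and 1 higher, where 12.9% or 13.0% of all genes were lower. Without either 9 h array 55 were lower, where the share was 54.0% or 53.6%, and without a 7 h or 8 h array 12 were lower, where it was 32.0%. The part of the array brightness in these calls was not tested.

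The difference between treatments was not the same in the later as in the earlier window for NDUFA8 (-1.17, SE 0.31, adjusted p = 0.0312), ATP5MC2 (-0.91, SE 0.26, adjusted p = 0.0388) and NDUFA9 (-0.99, SE 0.30, adjusted p = 0.0492). These 3 of 79 genes (3.8%), all lower, compare with 10.3% of all genes lower and 1.99% higher. After normalization ATP5MC2 was lower (-0.57, adjusted p = 0.0345) and ATP5IF1 (0.46), NDUFB6 and COX7A2 (0.31) higher, where 3.8% of all genes were lower and 4.07% higher. The 3 calls in deposited values were lost when any 1 of the 7 h or 8 h arrays was left out, and 1 gene, higher, was called without a 10 h array and 41 or 42, all lower, without a 9 h array, where 41.7% or 42.2% of all genes were lower. Over all 4 hours together, with time as a block, none of the 79 passed as deposited (0% of all genes) or after normalization (0.394%), and at an unadjusted p under 0.05 limma gave 6 and 9, or 7.59% and 11.4%, with 10.4% and 17.8% of all genes. The largest were -0.74 for NDUFA8 and -0.56 for NDUFB7, and 0.09 for ATP5F1E and 0.07 for COX7C.

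**Figure D5:**
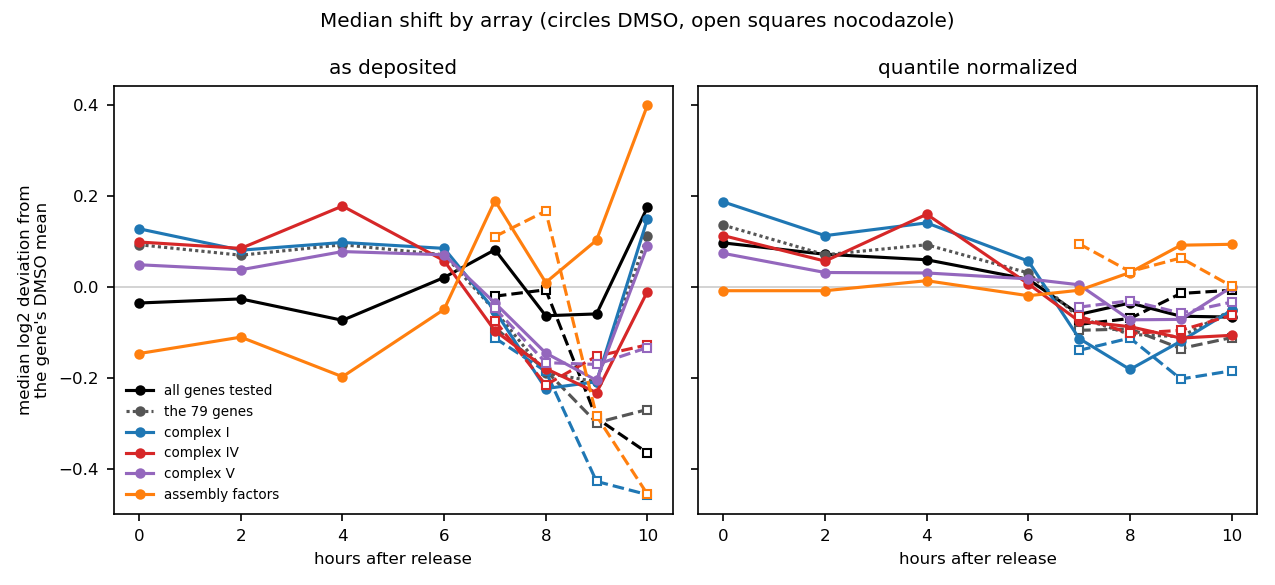
Median over each group of genes of the log2 deviation from the gene's DMSO mean, by array, for DMSO (circles, solid) and nocodazole (open squares, dashed), as deposited (left) and quantile normalized (right). As deposited, all genes fall to -0.36 at 10 h in nocodazole and the 79 genes (dotted) to -0.27, and after normalization all plotted medians lie between -0.20 and 0.19.

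Other mitochondrial groups were described beside these genes. Of 7 subunits encoded in mitochondrial DNA, 4 (ATP6, COX1, COX3 and ND4) were higher in nocodazole at 9 and 10 h as deposited, where 4.42% of all genes were higher. After normalization 3 (COX1, COX3 and ND6) were higher, where the share was 17.4%. None was lower on either scale, and the medians were 0.26 and 0.14. COX1 had 15.25 and 16.08 with DMSO at 9 and 10 h and 16.26 and 16.21 with nocodazole, so most of its difference lay in the DMSO array of 9 h. COX3 had 11.74 and 10.59 with DMSO and 13.15 and 13.13 with nocodazole, and COX1, COX2, ATP6, ND2 and ND4 had signals of 15.25 to 16.63 on all arrays, close to the 16.32 to 16.75 of each array's brightest probe set. ND6, from the other strand, had 12.94 at 4 h with DMSO, where 18S rRNA was high, and 10.55 to 11.67 on the other DMSO arrays. The medians of the 79 nuclear and the mitochondrial genes were -0.29 and 0.26 as deposited and -0.04 and 0.14 after normalization. Without the 8 assembly factors the nuclear median was -0.20 as deposited and -0.04 after normalization. Signal levels were also unlike, with medians of 12.62 for the 79 genes and 16.23 for the mitochondrial ones. All genes with a mean signal of at least 12 had a median difference of -0.13 as deposited. The difference between the 2 groups was not tested.

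Of 75 mitochondrial ribosomal proteins 44 were lower at 9 and 10 h (median -0.51) and none higher, of 45 assembly factors of all complexes 29 and none (-0.59), of 15 genes of the TCA cycle 6 and none (-0.43), of 13 genes of cytochrome c and its partners 4 and none (-0.11), and of 17 regulators of mitochondrial gene expression 3 and none (-0.35). The list of assembly factors of all complexes shares genes with the 79 and is not a separate group. Of other bright groups, 11 of 31 proteasome genes were lower (median -0.34) and 2 of 56 cytosolic ribosomal proteins (-0.05). Beside these counts, 40.8% of all genes were lower and 4.42% higher, with a median of -0.44. After normalization the 5 mitochondrial groups had 21, 7, 2, 3 and 1 lower and 3, 4, 0, 3 and 4 higher, where 17.7% of all genes were lower and 17.4% higher. Over the DMSO course, 10 of the 75 mitochondrial ribosomal proteins, 0 of the 31 proteasome genes and 2 of the 56 cytosolic ribosomal proteins were called, beside 8 of the 79. The share of all genes called was 21.8%.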

How the data were processed

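Gene expression was measured in 12 synchronized HCT116 cultures on 1 Affymetrix U133 Plus 2.0 array each. The authors computed the deposited log2 values per probe set with GC-RMA, with no version given in the sources used here. That the base is 2 was inferred from how far the values reach, and whether a quantile step between arrays was included is not stated. GC-RMA shrinks signals near the floor of the array, which bears on differences there. Among the genes tested, those with a mean signal under 10 had a wider median DMSO range (0.897) than those at 12 or more (0.451). Precision is limited by the number of arrays.

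Of 54675 probe sets, 41097 had 1 symbol in the platform annotation, 1801 had several and 11777 had none, and 15 genes of the symbol rule also sat on probe sets with several symbols, which were left out. The filter kept 15030 probe sets with 1 symbol that reached a log2 signal of 5 on 2 arrays or more, and the one with the highest mean stood for its gene. Of the 79 probe sets used, 41 were of the s type and 5 of the x type, which can share sequence with other transcripts.

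All 9130 genes were fitted with limma 3.58.1 (R 4.3.3; lmFit and eBayes with an intensity trend, Benjamini-Hochberg over all genes, threshold 0.05), on window means of the DMSO arrays, a natural cubic spline with 3 degrees of freedom, and the treatment difference over the 4 shared hours with the hour as a block. The fit with separate differences for 7 and 8 h and for 9 and 10 h left 2 residual degrees of freedom. The scripts were tested on simulated data. Figures were drawn with Python 3.11.15, pandas 2.3.3 and matplotlib 3.10.9. Alternatives were quantile normalization, other filters and probe set rules, array medians subtracted, no intensity trend, 1 fit over all arrays, a spline with 2 degrees of freedom, no time block, and each array left out.

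The genes, lists and windows were chosen with earlier results of these data known. Named genes were the brightest and dimmest of each complex, all SDH genes, those called (the 6 largest where over 6 were), the 2 largest differences each way, isoform pairs and the 3 widest and narrowest ranges. Others were named after their values were seen.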

Additional observations from a re-analysis of the deposited data

Results flagged for a closer look

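For 3 of the 79 genes (3.8%) the difference between nocodazole and DMSO was not the same at 7 and 8 h as at 9 and 10 h, by the interaction term of the limma fit. Of all genes, 10.3% were called lower and 1.99% higher by this term. The change was -1.17 (SE 0.31, adjusted p = 0.0312) for NDUFA8, -0.99 (SE 0.30, adjusted p = 0.0492) for NDUFA9 and -0.91 (SE 0.26, adjusted p = 0.0388) for ATP5MC2. Nocodazole was below DMSO at both 9 and 10 h for all 3 genes. After quantile normalization only ATP5MC2 of the 3 was still called. With array medians subtracted none of the 3 passed, and leaving out any 1 of the 7 h or 8 h arrays left no gene of the 79 called. Outlying arrays within a group were not looked for, since each group had 1 array.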

How the results depend on the processing

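With 1 array per condition, every count rests on the scatter between neighbouring hours, and GC-RMA values near the floor of the array are compressed. For each alternative that changed a value, the cause was not tested, except that leaving out arrays leaves fewer degrees of freedom.

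Between 6 to 8 h and 0 to 4 h with DMSO, 0 genes were called in deposited values (6.05% of all genes), 5 after quantile normalization (9.68%), 1 with a filter at 7 (9.7%) and 1 with all probe sets of a gene averaged (8.17%). The count was 31 with array medians subtracted (14.4%) and 10 in 1 fit over all 12 arrays (16.7%). Leaving out 1 array gave 0 to 6 (6 without 6 h, with 13.9% of all genes, 2 without 4 h, with 6.0%). Where it gave 0, the share of all genes was 0% to 2.48%. The median of the genes minus that of all genes was -0.199, and -0.041 after quantile normalization. Over the DMSO course the count was 8, and 32 after quantile normalization, 3 without the level filter, 13 with a filter at 7, 1 without an intensity trend, 58 with array medians subtracted and 4 with a spline of 2 degrees of freedom. Leaving out 1 array gave 1 (8 h or 9 h) to 24 (10 h), with 4 without 7 h. From 6 to 8 h to 9 and 10 h no alternative called a gene.

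For nocodazole against DMSO over 7 to 10 h, 19 genes, all lower, were called in 1 fit over all 12 arrays, where 23.5% of all genes were lower. The median relative to all genes turned from 0.092 to -0.148 without the level filter. At 9 and 10 h the count of 27 became 43 with array medians subtracted, 41 of them higher, where 34.4% of all genes were higher. Leaving out 1 array gave 11 (either 10 h array, 16.0% or 16.1% of all genes) to 55 (either 9 h array, 57.4% or 57.0%), with 12 without any of the 7 h or 8 h arrays (36.6%). The median relative to all genes was 0.152. This value was 0.188 with a filter at 7, 0.243 for the 71 genes other than the assembly factors and 0.152 to 0.204 with 1 array left out. The same value turned to -0.042 after quantile normalization and to -0.226 without the level filter.

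For the change of the treatment difference between the windows, the count was 3, with 12.3% of all genes called. It became 17 without the level filter (50.9%), 9 with a filter at 7 (22.6%), 7 with probe sets averaged (18.8%) and 1 without x and s type probe sets (6.15%). It was 1 without an intensity trend (8.59%) and 9, all higher, with array medians subtracted, where 14.7% of all genes were higher. Leaving out 1 array gave 0 (any 7 h or 8 h array, 4.94% to 17.7% of all genes) to 42 (DMSO 9 h, 44.7%), with 41 without nocodazole 9 h (44.2%) and 1 without either 10 h array (2.99% or 3.68%). The median relative to all genes was 0.199, then 0.236 with a filter at 7, 0.156 without x and s type probe sets, 0.104 to 0.294 with 1 array left out, and it turned to -0.086 after quantile normalization and to -0.259 without the level filter.

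Single genes turned sign with the probe set. ATP5IF1 went from 0.19 at 9 and 10 h to -1.517 with the mean of its probe sets and to -4.487 without x and s types, and its change between windows from 0.40 to -1.058 and -3.431. COX7C went from 0.07 over 7 to 10 h to -0.172 and -0.584. At 7 and 8 h, leaving out 1 array gave -0.063 to 0.501 for NDUFAF3 and -0.002 to 0.320 for NDUFAF7, the lowest without either 8 h array. Among single genes, 460 of the values under alternatives kept their direction and side of the threshold, 86 kept their direction but no longer passed, 24 came to pass and 10 turned sign. For the counts and medians of the group, 164 values stayed about the same, 53 moved and 4 reversed.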
